A study of Mus musculus with 8 samples.

Results

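The genes described here are 6 secreted proteins of the acute-phase response and of complement, Saa3, Hp, Lcn2, C3, Cfb and C1s1, measured in mouse bone marrow macrophages by RNA sequencing. They were chosen by gene symbol from the 24421 genes of the table, with their values in the libraries known. Their own values are therefore a description, and no p-value is given for them. The table has 4 groups of 2 libraries. The groups are Rbpj-knockout (KO) macrophages after 2 days with TNF at 40 ng/ml, wild-type (WT) macrophages after the same treatment, KO macrophages at day 0 and WT macrophages at day 0. The KO mice carried loxP-flanked Rbpj on both alleles and Cre under the LysM promoter, which is active in macrophages and also in granulocytes, so that deletion is limited to myeloid cells and can be incomplete. Untreated cells were sampled at day 0 only, so the effect of TNF and that of time in culture cannot be told apart. The labels used here give no strain or age. The study's design records a pair of independent experiments, and the labels do not tie libraries to animals, so p-values measure only the spread between these libraries, which may be technical.

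Acute-phase proteins are plasma and tissue proteins whose synthesis rises when inflammatory cytokines such as IL-1, IL-6 and TNF are released. The liver makes most of them, and macrophages make some of them locally. Their genes are known targets of NF-kB, C/EBP and STAT3. Complement is a cascade of plasma proteases and their substrates that is started by C1, by lectins or by the alternative pathway, and all routes meet at the cleavage of C3. RBP-J is the DNA-binding factor of the Notch pathway, and in macrophages it is known to shape responses to TNF and to restrain osteoclast formation.

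The promoters are shown because the members were not alike after TNF, and the motif of an acute-phase factor can be looked up in them. RefSeq windows of 250 bases before the start were matched for 4 of the 6 members (GRCm38.p6, all on the minus strand). They lie at chr7:46715677-46715926 for Saa3, chr2:32387740-32387989 for Lcn2, chr17:57228137-57228386 for C3 and chr6:124542360-124542609 for C1s1. The Lcn2 window lies inside the longer gene span of GENCODE M21, and the Saa3 window overlaps the first bases of the GENCODE span. Capitals mark matches to the C/EBP motif TTNNGNAA on either strand.
Saa3: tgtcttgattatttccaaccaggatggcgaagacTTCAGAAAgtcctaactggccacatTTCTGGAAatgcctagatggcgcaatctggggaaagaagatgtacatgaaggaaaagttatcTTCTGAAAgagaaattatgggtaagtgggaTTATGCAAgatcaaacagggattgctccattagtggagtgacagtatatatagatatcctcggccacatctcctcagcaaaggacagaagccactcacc
Lcn2: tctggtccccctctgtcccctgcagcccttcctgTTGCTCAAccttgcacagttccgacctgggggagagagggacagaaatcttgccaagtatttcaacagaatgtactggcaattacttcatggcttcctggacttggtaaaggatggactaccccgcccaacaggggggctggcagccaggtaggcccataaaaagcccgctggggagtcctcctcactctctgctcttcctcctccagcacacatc
C3: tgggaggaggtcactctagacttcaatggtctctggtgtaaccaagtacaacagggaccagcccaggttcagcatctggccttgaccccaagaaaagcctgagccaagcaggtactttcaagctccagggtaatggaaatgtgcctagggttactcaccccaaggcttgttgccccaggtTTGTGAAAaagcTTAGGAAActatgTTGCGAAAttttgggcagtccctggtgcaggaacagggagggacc
C1s1: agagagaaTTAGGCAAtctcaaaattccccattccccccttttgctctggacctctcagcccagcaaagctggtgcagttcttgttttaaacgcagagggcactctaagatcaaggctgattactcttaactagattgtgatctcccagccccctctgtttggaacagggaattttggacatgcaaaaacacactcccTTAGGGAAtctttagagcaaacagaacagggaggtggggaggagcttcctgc
The motif stood at 4 positions in the Saa3 window, at 3 in that of C3, at 2 in that of C1s1 and at 1 in that of Lcn2. Of 32851 RefSeq windows of the same length, 36.8% held at least 1 match. Shares for more than 1 position were not determined, so nothing is read from the number of positions. No match to 4 other motifs was found in the 4 windows, and so none overlapped the capitals. They were the RBP-J motif TGGGAA (21.6% of all windows), the NF-kB consensus (7.25%), the STAT motif TTCNNNGAA (7.02%) and the AP-1 motif TGANTCA (6.75%). A match is a description of these letters and not a binding site, and the absence of one says nothing of the factor.

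The libraries held 9855859 to 35653203 reads counted in genes, and 14491 to 15773 genes had at least 1 read. Rbpj was at 30.0 and 21.4 CPM, reads scaled to a common library total, in KO macrophages with TNF and at 226 and 178 CPM in WT macrophages with TNF. At day 0 it was at 38.9 and 31.8 CPM in KO macrophages and at 215 and 216 CPM in WT macrophages, so the libraries followed their labels and KO cells kept some Rbpj reads. Summed CPM of 10 macrophage markers ran from 5063 to 10612 over the 8 libraries. Of 8 hepatocyte markers, 5 (Apoa1, Ttr, Serpina1c, Tat and Cyp2e1) had no read in any library, and the 8 together summed to between 1.82 and 9.03 CPM. Libraries of the same replicate number were taken as pairs, and a second fit, in which that number is a block, is given where it changes a call.

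After 2 days with TNF, 5 of the 6 members were higher than at day 0 within both replicates of each genotype, and Lcn2 was lower. The 6 members together held 0.0688% and 0.161% of all counted reads in KO macrophages with TNF, against 0.00331% and 0.0404% in KO macrophages at day 0. In WT macrophages they held 0.242% and 0.851% with TNF, against 0.00307% and 0.0103% at day 0. Without overlap of the libraries, 4 of 6 were higher with TNF in KO macrophages, where 20.4% of all tested genes were (25.2% were lower), and 5 of 6 were higher in WT macrophages, where 14.8% were (22.6% were lower). The share of all tested genes that went the same way within both replicates was not determined. Since the members were chosen on these values, nothing is read from their counts or from the difference to those shares. The members' median log2 difference was 3.16 in KO and 6.21 in WT macrophages, beside medians of -0.10 and -0.12 over all tested genes.

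**Figure D1:**
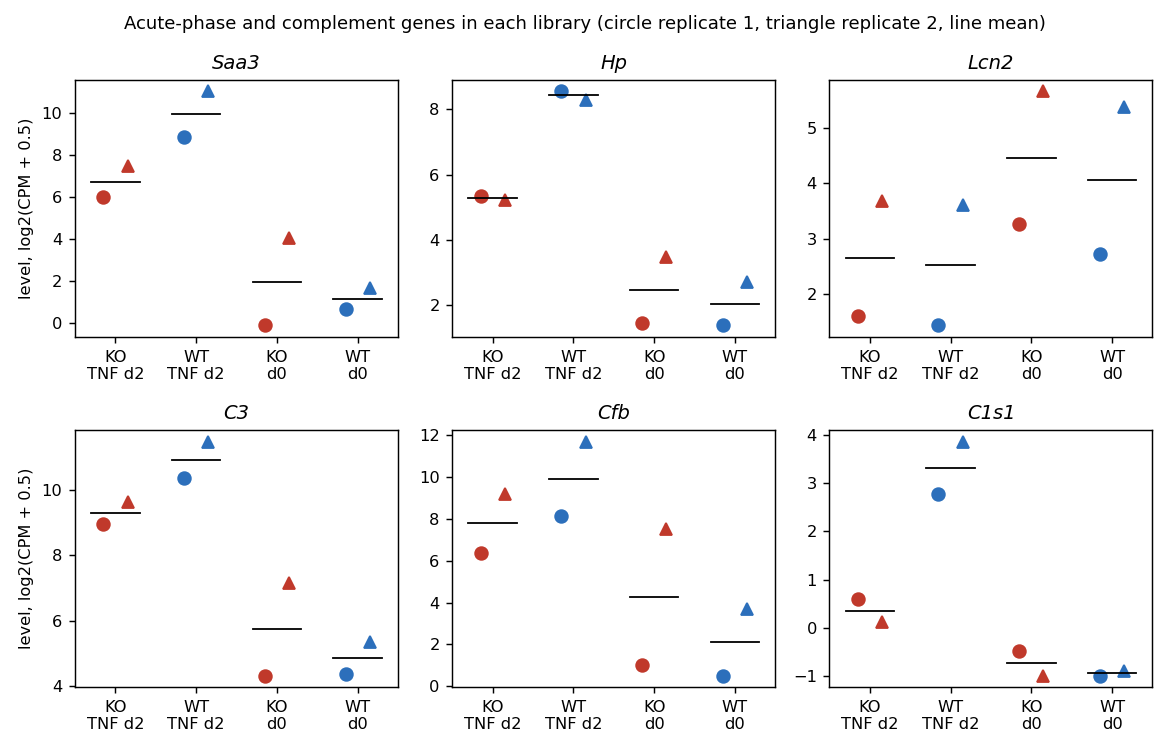
Levels of the 6 members in each of the 8 libraries, as log2(CPM + 0.5), with KO in red, WT in blue, circles for replicate 1, triangles for replicate 2 and a line at the mean of the 2 log2 values. Saa3, Hp and C3 were highest in both WT libraries with TNF, C1s1 was nearly without reads at day 0, and Lcn2 was the member with its highest values at day 0.

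Saa3, an acute-phase serum amyloid A that macrophages secrete, lies on the minus strand of GRCm38 chromosome 7, from 46711998 to 46715700. It had 62.3 and 177 CPM in KO macrophages with TNF, 450.2 and 2051 CPM in WT macrophages with TNF, 0.429 and 16.2 CPM in KO macrophages at day 0, and 1.09 and 2.63 CPM in WT macrophages at day 0. Every library with TNF lay above every library at day 0, and both KO libraries with TNF lay below both WT libraries with TNF. The log2 difference between TNF and day 0 was 4.75 ± 1.41 in KO macrophages (6.08 in replicate 1 and 3.41 in replicate 2). In WT macrophages it was 8.75 ± 1.41 (8.14 in replicate 1 and 9.35 in replicate 2). The ± after a log2 difference is the moderated standard error of the fit over all genes without the block (n = 2 libraries a group), and log2 differences are of log2(CPM + 0.5), which understates the change of low genes. After TNF, KO minus WT was -3.19 ± 1.41 for Saa3, with -2.84 and -3.53 within the replicates. Replicate 2 was higher than replicate 1 in all 4 groups.

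The near copies of Saa3 had almost no reads. Saa1, a hepatic form in mouse, had no read in any library, and Saa2 and Saa4 had 1 read each over all 8.

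Hp encodes haptoglobin, which binds free haemoglobin, and lies on the minus strand of chromosome 8, from 109575128 to 109579172. It had 40.3 and 37.0 CPM in KO macrophages with TNF, 375 and 315 CPM in WT macrophages with TNF, 2.25 and 10.8 CPM in KO macrophages at day 0, and 2.11 and 6.05 CPM in WT macrophages at day 0. The replicates of Hp after TNF were close together in both genotypes, and the genotypes overlapped only at day 0. The level in KO relative to WT macrophages after TNF was 0.108 in replicate 1 and 0.117 in replicate 2. On the log2 scale that difference was -3.14 ± 0.72. TNF minus day 0 was 2.81 ± 0.72 in KO and 6.38 ± 0.72 in WT macrophages, and the KO response minus the WT response was -3.56 ± 1.01.

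Lcn2 encodes lipocalin 2, which binds bacterial siderophores and is stored in neutrophil granules as well as secreted by macrophages. It lies on the minus strand of chromosome 2, from 32384633 to 32388252. It had 2.54 and 12.3 CPM in KO macrophages with TNF, 2.19 and 11.7 CPM in WT macrophages with TNF, 9.11 and 50.3 CPM in KO macrophages at day 0, and 6.12 and 41.5 CPM in WT macrophages at day 0. Within each replicate Lcn2 was lower with TNF than at day 0, but replicate 2 was so much higher than replicate 1 that the groups overlapped. The log2 difference between TNF and day 0 was -1.82 ± 1.32 in KO macrophages (-1.66 and -1.98 within the replicates) and -1.54 ± 1.32 in WT macrophages (-1.30 and -1.79). With the block its standard error was 0.23. Those of the other members were smaller with the block too. They were 0.82 for Cfb, 0.69 for Saa3, 0.56 for Hp, 0.49 for C3 and 0.46 for C1s1. Between the genotypes after TNF the difference was 0.13 ± 1.32, or 0.18 and 0.08 within the replicates.

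Summed markers of neutrophils and their precursors were lower with TNF than at day 0 in each replicate of each genotype, as Lcn2 was. The 13 markers in the table summed to 67.5 and 118 CPM in KO macrophages with TNF, against 321 and 1343 CPM in KO macrophages at day 0. In WT macrophages they summed to 123 and 251 CPM with TNF, against 213 and 1086 CPM at day 0. Of the 13, 5 fell with TNF in KO macrophages by limma without the block and 11 with it, beside 2.01% and 13.7% of all tested genes. In WT macrophages 1 and 8 fell, beside 0.369% and 4.71%. Not every marker followed the sum, which the abundant markers weigh on most. Mmp8, named after its values were seen, had 55.4 and 79.6 CPM in WT macrophages with TNF, against 35.9 and 52.1 CPM in WT macrophages at day 0. S100a8, named likewise, overlapped between TNF and day 0, with a mean of 23.3 (SD 2.61) against 103 (SD 121) CPM in KO macrophages. In WT macrophages it overlapped too, with 65.1 (SD 24.0) against 82.6 (SD 97.2) CPM. The part of these markers in the Lcn2 values was not tested, and in bulk RNA fewer cells of a type and less RNA per cell cannot be told apart. Hp, which developing granulocytes also make, and Saa3 went the other way, and were higher with TNF than at day 0 in each replicate of each genotype while the sum was lower.

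**Figure D2:**
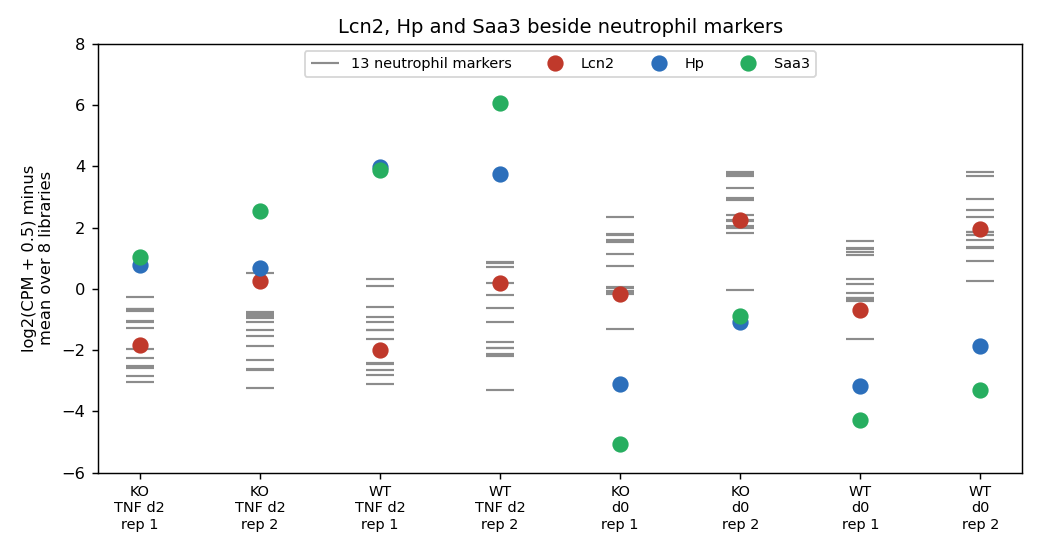
Lcn2, Hp and Saa3 (coloured points) beside 13 neutrophil markers (grey dashes), as log2(CPM + 0.5) minus each gene's mean over the 8 libraries, with libraries along the horizontal axis. Lcn2 lies within the range of the markers in 8 of 8 libraries. Hp and Saa3 lie above all 13 in the 4 libraries with TNF and below all 13 in the 4 at day 0. The share of all tested genes within that range was not determined.

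C3, the protein on which all complement pathways meet, lies on the minus strand of chromosome 17, from 57203970 to 57228136. It had 498 and 790 CPM in KO macrophages with TNF, 1305 and 2813 CPM in WT macrophages with TNF, 19.5 and 141 CPM in KO macrophages at day 0, and 20.4 and 40.2 CPM in WT macrophages at day 0. All libraries with TNF lay above all libraries at day 0, and the genotypes were apart with TNF and overlapped at day 0. TNF minus day 0 was 3.56 ± 0.92 in KO and 6.04 ± 0.92 in WT macrophages on the log2 scale. KO minus WT after TNF was -1.61 ± 0.92, with -1.39 and -1.83 within the replicates.

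Cfb encodes complement factor B, the protease of the alternative pathway's C3 convertase, and lies on chromosome 17 as well, from 34856374 to 34862518 on the minus strand. It had 83.1 and 589 CPM in KO macrophages with TNF, 281 and 3308 CPM in WT macrophages with TNF, 1.54 and 186 CPM in KO macrophages at day 0, and 0.911 and 12.4 CPM in WT macrophages at day 0. Cfb was the member whose replicates differed most, with replicate 2 at 121 times replicate 1 in KO macrophages at day 0 and at 7.09 to 13.6 times in the other 3 groups. A replicate difference as large as that of KO macrophages at day 0 was found in 0.0410% of the tested genes. Its KO libraries therefore overlapped between TNF and day 0, and its genotypes overlapped after TNF. TNF minus day 0 was 3.51 ± 2.37 in KO macrophages, with 5.36 and 1.66 within the replicates, and 7.82 ± 2.37 in WT macrophages on the log2 scale. KO minus WT after TNF was -1.75 and -2.49 within the replicates, with a pooled -2.12 ± 2.37. C2, the neighbouring gene that encodes the homologous protease of the classical pathway, had 18 reads or fewer in every library.

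C1s1 encodes complement C1s, the protease of the C1 complex that cleaves C4 and C2, and lies on the minus strand of chromosome 6, from 124530345 to 124542359. It had 10 and 11 reads in KO macrophages with TNF, 226 and 332 reads in WT macrophages with TNF, 6 and 0 reads in KO macrophages at day 0, and 0 and 1 read in WT macrophages at day 0. In CPM these were 1.01 and 0.580 for KO and 6.34 and 14.1 for WT macrophages with TNF. Both KO libraries with TNF lay above day 0 and below both WT libraries with TNF. The depth-scaled ratio of summed reads between KO and WT macrophages after TNF was 0.0774 (95% counting interval 0.0475 to 0.119). Between TNF and day 0 that ratio was 6.13 (2.39 to 18.6) in KO and 512 (91.6 to 20274) in WT macrophages, and these intervals cover counting error only. Its near copy C1s2 had 0 and 5 reads in KO and 25 and 15 reads in WT macrophages with TNF, and 2 reads or fewer in each library at day 0. How the counting divided reads between C1s1 and C1s2 was not stated, so both counts are uncertain.

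**Figure D3:**
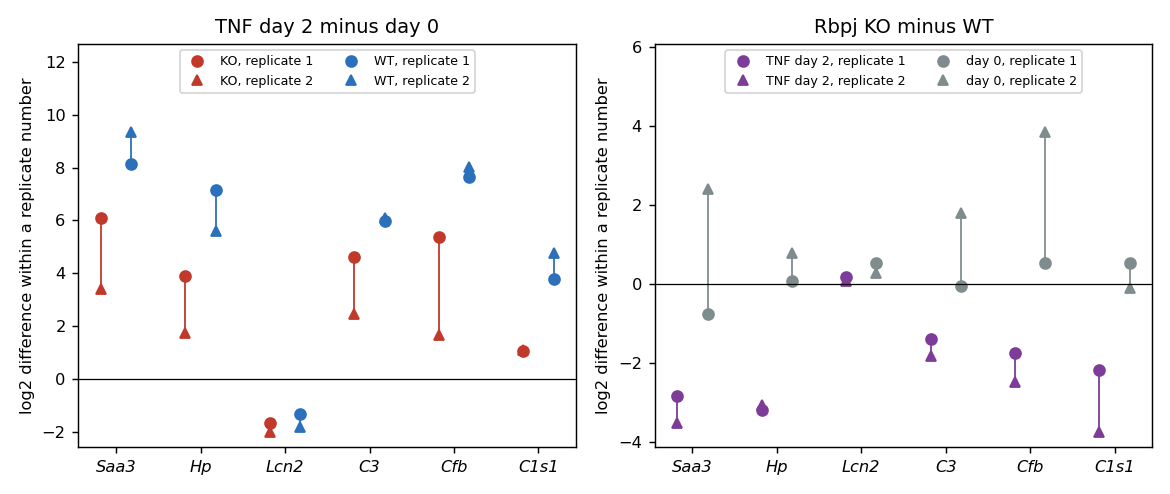
Log2 differences of the 6 members within each replicate number, TNF minus day 0 at left (KO red, WT blue) and KO minus WT at right (with TNF purple, at day 0 grey), in log2(CPM + 0.5), with circles for replicate 1, triangles for replicate 2 and a line joining the pair. The WT points lie above the KO points for 5 members at left, and with TNF those 5 lie below 0 at right, from -1.39 for C3 to -3.75 for C1s1.

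KO and WT macrophages were further compared with TNF and at day 0. After TNF, 4 of 6 members (Saa3, Hp, C3 and C1s1) were lower in KO macrophages without overlap, where 16.1% of all tested genes were (18.8% were higher), and Cfb and Lcn2 overlapped. The members' median was -2.54 on the log2 scale, against 0.02 over all tested genes. At day 0 all 6 overlapped between the genotypes, where 9.86% of all tested genes were higher and 8.66% lower without overlap, and their median was 0.62, against 0.01 over all tested genes. KO minus WT at day 0 was above 0 in both replicates for 3 members, Hp (0.07 and 0.78), Lcn2 (0.54 and 0.27) and Cfb (0.53 and 3.85). It had different signs in the replicates for Saa3 (-0.78 and 2.41), C3 (-0.06 and 1.80) and C1s1 (0.51 and -0.10). Saa3, Hp, C3 and Cfb were higher in KO replicate 2 than in the other 3 libraries at day 0. Without that library and without the block the difference was -1.27 for Saa3, -0.59 for Hp, -0.54 for C3 and -1.07 for Cfb, against 0.82, 0.43, 0.87 and 2.19 with it. In fits with the block that left out 1 library, the lowest values were -0.49 for Saa3, -0.43 for Hp and -0.09 for C3, and Cfb stayed above 0, from 0.53 to 3.85. The TNF response in KO macrophages minus that in WT macrophages was below 0 for all 6 members within both replicates, with a median of -3.37 against 0.01 over all tested genes. It ran from -4.31 ± 3.35 for Cfb to -0.28 ± 1.87 for Lcn2. The shares of all tested genes with the same sign within both replicates were not determined. Since the members were chosen on these values, nothing is read from the counts of members.

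Other cell states differed between the genotypes in the same libraries. Summed CPM of 10 osteoclast markers was 18804 and 45864 in KO macrophages with TNF and 6579 and 4965 in WT macrophages with TNF. In KO against WT macrophages after TNF, 10 of the 10 were higher by limma, with the block only, where 5.53% of all tested genes were. Of the 10 macrophage markers, 4 were lower, also with the block only, where 3.75% of all tested genes were. The 10 fibroblast and stromal markers followed the replicate number, with 143 to 219 CPM in replicate 1 and 5.38 to 41.2 CPM in replicate 2 over the 4 groups. The part of these markers in the members' values was not tested.

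Compared per kilobase of the principal transcript, the members' levels in WT macrophages with TNF were in the order Saa3 (mean 2254 CPM per kb), Cfb (655), C3 (401), Hp (256), Lcn2 (7.57) and C1s1 (3.47). Neighbours in that order overlapped between the libraries, except Hp and Lcn2, which were apart. In KO macrophages with TNF the means were 216 CPM per kb for Saa3, 125 for C3, 123 for Cfb, 28.7 for Hp, 8.13 for Lcn2 and 0.271 for C1s1.

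Outside the 6 members, the genes whose pattern over the 8 libraries was most like a member's were found by the root mean square difference of log2(CPM + 0.5) after centring each gene. For Saa3 these were Fpr2 (1.12), Irg1 (1.13) and Fpr1 (1.14), for Hp they were Fpr1 (0.80), Slc6a12 (0.82) and Gbgt1 (0.82), and for C3 they were Fpr2 (0.60), Fpr1 (0.64) and Il1f9 (0.64). Of these genes, Cfb was closest to Fpr2 (1.03), Adgre4 (1.15) and Fpr1 (1.42), and C1s1 to Fxyd2 (0.43), Artn (0.47) and Spaca6 (0.53). Lcn2 stood apart from the other members, with differences of 2.72 (C1s1) to 4.42 (Saa3), and was closest to Tubb1 (0.28), Alox12 (0.28) and F5 (0.35). None of Tubb1, Alox12 and F5 is on the list of neutrophil markers. Among the members, Hp and C3 were the closest pair at 0.73, nearer than any gene named for Hp. For Cfb, the member Saa3 at 1.24 was nearer than Fpr1 at 1.42.

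The wider acute-phase and complement list held 83 other genes, of which 23 had no read in any library and 32 had at least 1 CPM in at least 2 libraries and were tested. The 23 included the hepatic acute-phase genes Crp, Fga, Fgb, Fgg and Hrg and the terminal complement genes C6, C7 and C8b. With TNF in KO macrophages, 7 of the 32 fell and 0 rose without the block (limma, adjusted p under 0.05 over all genes, with 12 at an unadjusted p under 0.05). edgeR called 7 lower and 0 higher, and DESeq2 called 8 lower and 2 higher. With the block 5 rose and 10 fell. Over all tested genes 3.09% rose and 2.01% fell without the block, and 12.2% and 13.7% with it. In WT macrophages none of the 32 passed without the block, 13 of them had an unadjusted p under 0.05, edgeR also called 0 and DESeq2 called 13. With the block 5 rose and 7 fell, beside 5.54% and 4.71% of all genes (0.812% and 0.369% without it). The list's median log2 difference was -0.34 in KO and 0.15 in WT macrophages.

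C1qa, C1qb and C1qc, the chains of the C1q molecule that starts the classical pathway, fell with TNF in KO macrophages, where C3 and C1s1 were higher than at day 0. C1qa had 227 and 112 CPM in KO macrophages with TNF, against 1396 and 1302 CPM in KO macrophages at day 0. Both libraries with TNF were far below both at day 0. The log2 differences were -3.08 ± 0.54 for C1qa (limma adjusted p = 0.0297), -3.22 ± 0.67 for C1qb (0.0482) and -3.46 ± 0.65 for C1qc (0.0351). In WT macrophages C1qa, C1qb and C1qc passed only with the block, at -1.71 (adjusted p = 0.0341), -2.07 (0.0267) and -2.16 (0.0168). C1ra, the partner protease of C1s in the C1 complex, had 11.8 and 31.8 CPM in WT macrophages with TNF, against 1.93 and 4.01 CPM in WT macrophages at day 0. It rose by 2.59 ± 0.67 in WT macrophages, with an adjusted p of 0.00422 with the block and 0.162 without it. In KO macrophages the difference of C1ra was 0.55 ± 0.67 and passed in neither fit. Fcnb, a ficolin that starts the lectin pathway, had 0.101 and 0.791 CPM in KO macrophages with TNF, against 1.64 and 6.89 CPM in KO macrophages at day 0. It fell with the block in KO (-2.17, adjusted p = 0.0146) and WT macrophages (-2.01, adjusted p = 0.0367).

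Receptors for complement fragments and for C1q fell as well. C3ar1, the receptor of C3a, had 241 and 73.7 CPM in KO macrophages with TNF, against 1269.7 and 1990.4 CPM in KO macrophages at day 0. It fell in KO macrophages (-3.57 ± 0.61 on the log2 scale, limma adjusted p = 0.0281), as did C5ar1 (-2.24, 0.0440) and C5ar2 (-3.22, 0.0302), the receptors of C5a. Cd93, once described as a C1q receptor, fell as well (-3.34, 0.0215). In WT macrophages C3ar1 (-2.51, adjusted p = 0.0464), C5ar2 (-2.89, 0.0217) and Cd93 (-2.72, 0.00811) fell with the block only. Of the integrin chains of the receptors of cleaved C3, Itgax rose with the block in KO (2.57, adjusted p = 0.0141) and WT macrophages (3.77, 0.00861), and Itgb2 rose with it in WT macrophages (1.49, 0.0128). Itgam passed in neither fit, at -0.35 in KO and 0.71 in WT macrophages, and Itgb2 in KO macrophages passed in neither, at 0.65. Each of these receptor calls, in the fit that gave it, was lost when some single library was left out. With the block and a library left out, C3ar1 in WT macrophages ran from -3.20 to -1.83 and C5ar2 there from -3.75 to -2.03.

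Of the regulators and alternative pathway genes, Cd59a, which blocks the membrane attack complex, rose (0.99, adjusted p = 0.0471) and the chaperone Clu fell (-0.95, 0.0471), both in KO macrophages and with the block only. The call of Clu was lost in all 8 fits that left out 1 library (adjusted p 0.0605 to 0.227) and that of Cd59a in 4 (up to 0.226). Cfp encodes properdin, which stabilises the alternative convertase. It rose with the block in WT macrophages (0.79, adjusted p = 0.0410), with 763 and 463 CPM with TNF, against 434 and 272 CPM at day 0, and its call was lost in 6 of the 8 fits that left out 1 library (up to 0.231).

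Of the 7 tested acute-phase genes, Orm1, which encodes the lipocalin alpha-1-acid glycoprotein, rose with the block in WT macrophages (2.92, adjusted p = 0.0179). It had 2.05 and 11.7 CPM with TNF, against 0.0729 and 0.445 CPM at day 0. In KO macrophages Steap4, a metalloreductase induced by TNF in fat cells, rose with the block (6.99, adjusted p = 0.0128), with 10.5 and 525 CPM with TNF, against 0.107 and 0.0888 CPM at day 0. Serpina3g, a serine protease inhibitor, rose (1.80, adjusted p = 0.0281), and Lbp, which carries lipopolysaccharide, fell (-1.62, adjusted p = 0.0250), both with the block only. With a library left out, these calls were lost in 2 of 8 fits for Orm1 (adjusted p up to 0.144), 1 for Steap4 (up to 0.0979), 4 for Serpina3g (up to 0.151) and 2 for Lbp (up to 0.202).

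**Figure D4:**
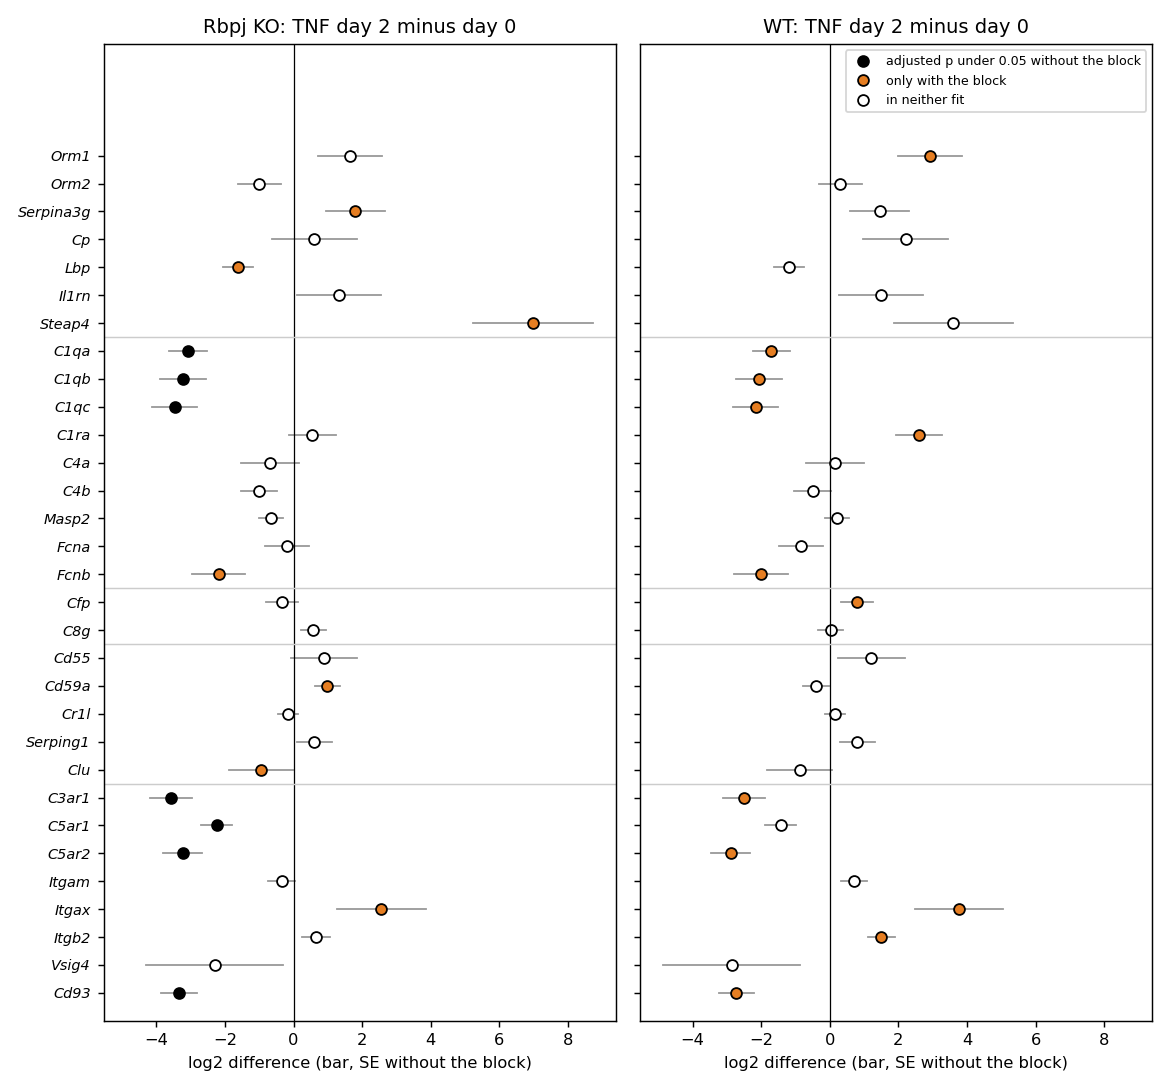
Log2 difference between TNF and day 0 for 31 of the 32 tested genes of the wider list, in KO (left) and WT (right) macrophages, with bars of 1 SE without the block, in groups from the top of acute-phase proteins, classical and lectin pathway, alternative and terminal pathway, regulators and receptors. Filled black points passed without the block, orange points with it only and open points in neither fit. The 7 black points are all at left and below 0.

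The number of calls in the wider list depended on single libraries, but not every call with the block did. In fits with the block that left out 1 library, C1qa in KO macrophages ran from -3.47 to -2.68. C1qb there ran from -3.68 to -2.77, C1qc from -3.87 to -3.06 and Cd93 from -3.52 to -3.15. C1ra in WT macrophages ran from 2.36 to 2.83 in these fits. The 7 calls in KO macrophages came to 0 when KO replicate 2 with TNF, either KO library at day 0 or either WT library at day 0 was left out, and to 6 without any of the other 3 libraries. With the block, the 15 calls came to 7 without KO replicate 2 with TNF and to 4 without KO replicate 2 at day 0. In WT macrophages the 12 calls with the block came to 1 without WT replicate 2 with TNF and to 3 without WT replicate 2 at day 0.

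Between KO and WT macrophages after TNF, none of the 32 list genes passed without the block (4 had an unadjusted p under 0.05, edgeR also called 0, and DESeq2 called 1, which was higher in KO macrophages), and 2 were lower with it. Over all tested genes 0.0082% were higher and 0% lower without the block, and 5.53% and 3.75% with it. C1ra was lower in KO macrophages (-1.83, adjusted p = 0.0220 with the block and 0.374 without), with 4.06 and 6.43 CPM in KO and 11.8 and 31.8 CPM in WT macrophages. Cfp was lower too (-1.13, adjusted p = 0.0229 with the block and 0.442 without), with 390 and 188 CPM in KO and 763 and 463 CPM in WT macrophages. Both genes were without overlap between the genotypes. The 2 calls came to 0 without KO replicate 2 or WT replicate 2 with TNF, and to 4 without KO replicate 1 with TNF. The list's median was -0.41. At day 0 none of the 32 passed in either limma fit, by edgeR or by DESeq2, and 0 had an unadjusted limma p under 0.05 without the block and 1 with it. None passed by these tools for the TNF response in KO minus that in WT macrophages, where 1 had an unadjusted limma p under 0.05 without the block and 7 with it.

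Of 20 tested inducers of acute-phase genes, 3 rose and 2 fell with TNF in KO macrophages without the block, beside 3.09% and 2.01% of all tested genes. The fit with the block called 6 higher and 4 lower, beside 12.2% and 13.7%. For WT macrophages 2 rose and 0 fell without the block, beside 0.812% and 0.369%. There 8 rose and 2 fell with the block, beside 5.54% and 4.71%. Lif, a cytokine of the IL-6 family, had 38.8 and 31.0 CPM in KO macrophages with TNF, against 0.750 and 0 CPM in KO macrophages at day 0 (5.48 ± 0.56, limma adjusted p = 0.00731). Relb and Nfkb2, subunits of the non-canonical NF-kB pathway, rose in KO macrophages by 2.12 (adjusted p = 0.0169) and 1.67 (0.0489), and in WT macrophages by 2.86 (0.0188) and 2.38 (0.0402). Il6ra and Lifr, receptors of IL-6 and LIF, fell in KO macrophages (-1.62, adjusted p = 0.0141, and -2.39, 0.0371). Leaving out 1 library took away the calls of Nfkb2 in both genotypes for each of the 8 libraries, with adjusted p of 0.0660 to 0.245 in KO and 0.0555 to 0.282 in WT macrophages, and all of them were kept with the block. Without the block, the calls of Relb, Il6ra, Lifr and Lif were lost in up to 4, 4, 6 and 2 of the 8 fits without a library, with highest adjusted p of 0.158, 0.121, 0.200 and 0.0515.

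After TNF, Lif was higher in KO than in WT macrophages with the block (2.64, adjusted p = 0.0180), at 38.8 and 31.0 CPM in KO and 6.62 and 3.94 CPM in WT macrophages. Cebpb, a C/EBP factor of the acute-phase response, was lower in KO macrophages with the block (-1.51, limma adjusted p = 0.0236, and 0.902 without it). It was at 196 and 24.6 CPM in KO and 417 and 95.2 CPM in WT macrophages. Its replicates differed more than its genotypes, and replicate 1 was the higher one, the reverse of Saa3, C3 and Cfb. The calls of Lif and Cebpb were each lost in 2 of the 8 fits without a library, with highest adjusted p of 0.160 and 0.162.

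Among receptors and partners of the members, Fpr2, a formyl peptide receptor that also binds serum amyloid A, had 43.2 and 130 CPM in KO macrophages with TNF, 98.7 and 531 CPM in WT macrophages with TNF, 1.36 and 19.9 CPM in KO macrophages at day 0, and 0.620 and 5.86 CPM in WT macrophages at day 0. It rose with the block in KO (3.62, adjusted p = 0.00234) and WT macrophages (6.43, 0.00144), and its genotypes overlapped after TNF. Mmp9, the gelatinase that lipocalin 2 binds, had 8354 and 12493 CPM in KO macrophages with TNF, against 14.5 and 14.3 CPM in KO macrophages at day 0. It rose by 9.42 ± 0.33 in KO (limma adjusted p = 0.000322) and by 8.12 ± 0.33 in WT macrophages (0.00128), and kept its call in KO macrophages whichever of the 8 libraries was left out. In WT macrophages its call was lost without WT replicate 2 at day 0 (adjusted p = 0.0534). Tlr4, the receptor of lipopolysaccharide, and Hmox1, the haem oxygenase downstream of haptoglobin uptake, were lower in KO than in WT macrophages after TNF with the block (-1.02, adjusted p = 0.0301, and -1.64, 0.0278), and neither passed without it. With the block, leaving out 1 library took away the call of Tlr4 in 5 of 8 fits (adjusted p up to 0.206) and that of Hmox1 in 2 (up to 0.210).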

How the data were processed

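Poly-A RNA libraries of 8 macrophage cultures were sequenced. The submitters' processing notes name fastp, HISAT2, HTSeq and edgeR, and the build mm10. No version, setting or annotation was given in the sources used here. CPM values were deposited, which the authors had scaled to each library's reads in genes. Of the values, 100% were within 0.01 of a whole multiple of what 1 read is worth, so reads were recovered (9855859 to 35653203 per library).

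Genes with 1 CPM or more in at least 2 libraries (12194) were tested by limma 3.58.1 in R 4.3.3 on log2(CPM + 0.5), 2-sided, using lmFit and eBayes with a trend. All 8 libraries entered, with group as the term (4 residual degrees of freedom). Benjamini-Hochberg adjustment covered all tested genes, separately in 5 contrasts, at a threshold of 0.05. A second fit held the replicate number as a block (3 residual degrees of freedom). The numbers were taken as pairs because the design records a pair of independent experiments and the replicate differences correlated at 0.577 to 0.805 over 6 pairs of groups, although no label says that a number marks an experiment. In no group did the reads of the libraries match within sampling noise. Alternatives were edgeR 4.0.16 and DESeq2 1.42.0 on the recovered reads, pseudocounts of 0.1 and 1, other filters and scalings, a contrast's libraries alone, and leaving out each library. The code was tested on simulated data.

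The 6 members and the lists were chosen with earlier results of these data known, so the members carry no p-value, and a list's direction is not independent support. Genes were named from the members, their near copies, Rbpj and the 3 genes most like each member. List genes were named from those that passed in either fit (up to 12 a contrast by size) and the most abundant of each list. Not every gene that met these rules is named. Abundant list genes left out include Il1rn (mean 182 CPM over all libraries) and Lrp1 (1976 CPM). A list gene that is not named may therefore be abundant or have passed. Of the table's symbols, 23350 are in GENCODE M21, the source of the GRCm38 positions. The values of 1 list gene that enters the counts are not reported here.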

Additional observations from a re-analysis of the deposited data

Results flagged for a closer look

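Opposite directions in every replicate were looked for only among the members and the list genes called in either fit. They were found for 19 genes, which are given as values. The share of all tested genes with such a pattern was not determined, so nothing is read from the count. For 18 genes KO minus WT had one sign after TNF and the other at day 0. Among the members these were Hp, with -3.14 after TNF, 0.43 at day 0 and a difference of -3.56 on the log2 scale, and Cfb, with -2.12, 2.19 and a difference of -4.31. The difference was not tested for Hp and Cfb, which were chosen on these values. The differences of the other genes were tested by limma and none passed, with adjusted p from 0.818 to 0.9997. In the complement lists they were C1qa (-1.37), C1qb (-1.16), C1qc (-1.31), C1ra (-2.04) and Cd59a (1.39). Among receptors they were Fpr1 (-3.16), Fpr2 (-2.81) and Tlr2 (-1.40). Among inducers they were Tnf (-1.10), Il6ra (-0.60), Cebpa (-1.25), Cebpb (-1.73), Nfkbiz (-2.34), Nfkb2 (-0.71), Relb (-0.75) and Socs3 (-2.30).

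The TNF response had opposite signs in KO and WT macrophages for Cfp, at -0.33 in KO and 0.79 in WT macrophages with a difference of -1.12. The same was found for Nfkbiz, at -1.24 in KO and 1.10 in WT macrophages with a difference of -2.34.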

How the results depend on the processing

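Each group had 2 libraries, so 1 library decides many calls, and genes at a few reads, such as C1s1, have wide intervals at this depth. Median-ratio and TMM scaling moved the median of all genes by 0.12 and 0.11 in the WT response to TNF, and by less than 0.1 in the other contrasts. Over all settings other than leaving out 1 library at a time, 0 member differences changed sign, 303 moved by less than the spread and 21 by more. In this balanced design the block, the other filters and a contrast's libraries alone cannot move a limma log2 difference. These counts are therefore no measure of stability. The cause of the changes below was not tested.

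With the replicate block, calls in the wider list numbered 15 for the KO response to TNF (7 without it), 12 for the WT response (0) and 2 for KO against WT after TNF (0), and calls over all genes numbered 3162 (622), 1250 (144), 1131 (1) and, for KO against WT at day 0, 1 (0). edgeR with the replicate block called 16, 14 and 3 in the list, and 3074, 1163, 811 and 1 over all genes. DESeq2 called 13 for the WT response and 1 for KO against WT after TNF in the list, and over all genes 1701, 874, 593, 24 and, for the difference between the responses, 78 (0 by limma). edgeR without the block called 60 genes for the WT response and 0 for KO against WT after TNF. With no filter, 4 list genes were called for the KO response, 78 genes for the WT response and 13 for KO against WT after TNF. With a contrast's libraries alone, 0 list genes and 71 genes were called for the KO response, 28 genes for the WT response and 0 for KO against WT after TNF. The last count was 4 with TMM, 2 with median-ratio scaling, and 0 with a pseudocount of 0.1 or a minimum of 5 CPM.

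Leaving out 1 library at a time without the block gave 0 to 6 list calls for the KO response and 0 for the others, and 43 to 509, 0 to 84, 0, 0 and 0 calls over all genes for the KO response, the WT response, KO against WT after TNF, KO against WT at day 0 and the difference. With the block these were 4 to 15, 1 to 14 and 0 to 4 in the list, and 894 to 3069, 249 to 1377, 0 to 1169, 0 to 2 and 0 to 358 over all genes. Member differences that changed sign did so only when a library was left out. They were KO against WT at day 0 for Saa3 (-1.27 to 2.90), Hp (-0.59 to 1.44), Lcn2 (-0.93 to 1.74), C3 (-0.54 to 2.28), Cfb (-1.07 to 5.45) and C1s1 (-0.05 to 0.46, and -0.17 to 0.58 with the block). With the block the lowest values for Saa3, Hp and C3 were -0.49, -0.43 and -0.09, while Lcn2 (0.18 to 0.63) and Cfb (0.53 to 3.85) kept their sign. For Lcn2, KO against WT after TNF ran from -0.96 to 1.22 (lowest -0.04 with the block) and the difference between the responses from -1.61 to 1.05.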
